A study of Mus musculus with 6 samples.

Results

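The amino acid transporter genes were taken as every probe, control probes excluded, whose gene name on the array begins with Slc1a, Slc3a, Slc6a, Slc7a, Slc36a, Slc38a or Slc43a and a number. The rule took 120 of 56605 probes and 66 of 37074 gene names, of which 4 (Slc36a1os, Slc36a3os, Slc6a19os and Slc7a6os) are the names of neighbouring or opposite-strand transcripts and not of transporters. RNA came from the left kidneys of male mice, 8 weeks of age and fasted for 20 h. WT mice (C57BL/6J; arrays WT 2, WT 3 and WT 4) were compared with Selenbp1-KO mice, which lack selenium-binding protein 1 (arrays KO 1, KO 2 and KO 3), with 3 mice and 3 arrays per genotype. C57BL/6J is the strain given for both genotypes. The methods name a commercial supplier for C57BL/6J mice, cite earlier work for the knockout line and do not state that littermates were used.

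Each array gave 1 color, and all levels below are log2 of the background-corrected signal minus log2 of that array's 75th percentile, so that 0 is the 75th percentile of the array. A difference is the Selenbp1-KO mean minus the WT mean on this scale, and levels of different probes are not comparable with each other. "Called" means an unadjusted p under 0.05 in limma, the threshold that the methods use, and the p adjusted over all 56097 tested probes is given beside it. The Selenbp1 probe was at 7.02 to 7.07 on the WT arrays and at 3.98 to 4.13 on the Selenbp1-KO arrays. The 75th percentile signal was 519 to 751 on the WT arrays and 477 to 584 on the Selenbp1-KO arrays, and 51.8% to 55.5% of probes were well above background. All 6 arrays shared 1 slide, with WT 2 and WT 3 in its first row and WT 4 and every Selenbp1-KO array in its second row, so a difference between rows is partly confounded with genotype. A fit with slide row as a block therefore compares the Selenbp1-KO arrays with WT 4 alone, which is assumed to vary like the other arrays, and restates how WT 4 stands. All 16 marker genes of the proximal tubule, distal nephron and glomerulus were well above background on all 6 arrays, and none was called.

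Amino acids filtered by the glomerulus are taken back almost entirely by the proximal tubule. Sodium- and proton-driven carriers and exchangers load them from the lumen through the brush border, and a second set of exchangers and facilitators releases them through the basolateral membrane to the blood. Several light chains of the Slc7 family reach the membrane only when paired with a heavy chain, Slc3a1 on the apical side or Slc3a2 on the basolateral side. Other members of these families feed growing cells, are induced when amino acids are scarce, or sit in the lysosome and report amino acid supply to the growth regulator mTOR.

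The array reads each gene with probes of 60 bases, and 37 of the 66 genes had more than 1. Some probes match the genome (mm9) over a stretch longer than the probe itself, that is, across a splice junction, and 4 of these are given here. They are printed because the probe of Slc43a1 is one of the few called probes, and because the others stand beside a second probe of the same gene in the results that follow. The sequences are those of the array design.
Slc43a1, chr2:84692915-84694625, plus strand: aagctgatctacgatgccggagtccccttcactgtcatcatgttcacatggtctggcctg
Slc6a18, chr13:73803125-73803795, minus strand: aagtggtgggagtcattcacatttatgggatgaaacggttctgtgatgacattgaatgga
Slc6a6, chr6:91699793-91700295, plus strand: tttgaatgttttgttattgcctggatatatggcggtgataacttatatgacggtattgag
Slc7a9, chr7:36239195-36239632, plus strand: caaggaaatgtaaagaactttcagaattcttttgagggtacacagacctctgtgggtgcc

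Few amino acid transporters were called between WT and Selenbp1-KO kidneys. Of the 118 member probes tested, 8 (6.78%) were called, 5 higher and 3 lower in Selenbp1-KO, against 7.98% of all probes on the array, of which 6.47% were higher and 1.51% lower. When each gene was represented by its brightest probe, 4 of 66 genes were called. Slc7a5 and Slc7a11 were higher and Slc38a2 and Slc7a15 were lower. The count was 13 without WT 4 (17585 of all 56097 probes called) and 2 without WT 2 (2024 probes) or without KO 2 (2808 probes), and the count over the whole array moved the same way. No member passed after adjustment, the lowest adjusted p being 0.279, and over the whole array 2 probes (0.00357%) passed. The call share of the members is thus near that of the array.

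For 47 genes the brightest probe was well above background, which here means on all 3 arrays of WT, of Selenbp1-KO or of both. Of these 47, Slc38a2 alone (1 gene) was called, and it was lower in Selenbp1-KO, against 5.65% of all probes so measured, 1.81% of them lower. The differences of these 47 genes ran from −0.50 to 0.51 with a median of −0.05, and 32 of them were below 0. For the 28515 probes of the array so measured the median was 0.00. The other 19 genes were too dim to be measured reliably, and 15 of them were well above background on no array. Among these 19 the median difference was 0.39, with 14 above 0, and the lowest signal that counted as well above background was also higher on the Selenbp1-KO arrays (−4.95 to −4.63) than on WT 2 and WT 3 (−5.31 and −5.40), with WT 4 at −4.87. The division of the called genes moved with the scaling: 2 were higher and 2 lower as described, 1 higher and 4 lower after quantile normalization (8.35% of all probes called), 4 higher and 2 lower after normexp background correction (11.2%), and 8 higher and 2 lower after scaling to the median (26.1%). The median difference of all probes was 0.11 as described, 0.00 after quantile normalization and 0.17 after normexp.

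**Figure D1:**
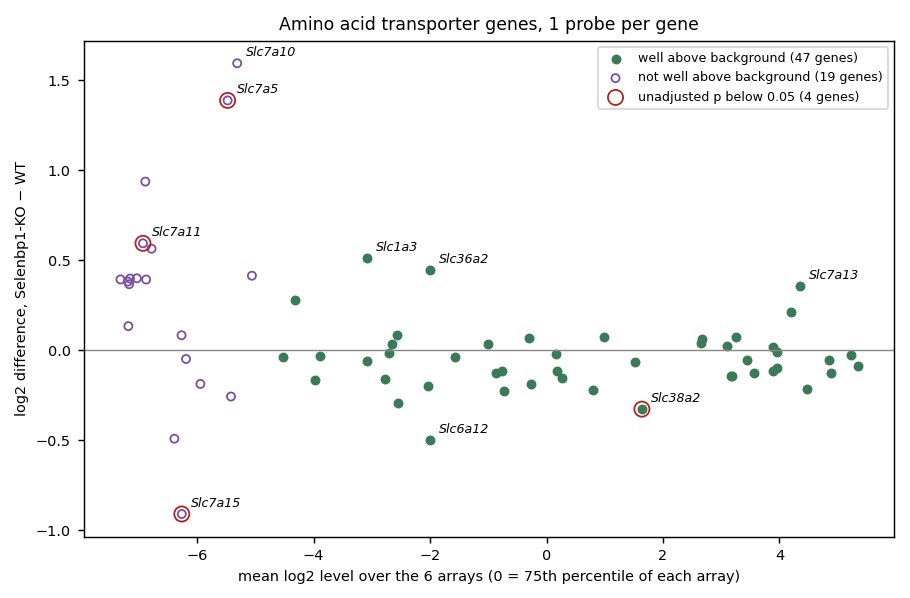
Each point is 1 of the 66 genes, shown by its brightest probe, with its mean log2 level over the 6 arrays on the x axis and its log2 difference between Selenbp1-KO and WT (3 arrays each) on the y axis. The filled points, 47 genes well above background, lie between −0.50 and 0.51, and 3 of the 4 called genes (red rings) are among the 19 open points, which were not well above background.

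On the apical side, none of the 12 carriers was called at its brightest probe. Dimmer probes of Slc6a20a and Slc36a1 were called and are given further below. Slc6a19, the main sodium-dependent carrier of neutral amino acids in the brush border, was at 3.68, 3.54 and 3.64 in WT and at 3.42, 3.45 and 3.60 in Selenbp1-KO, a difference of −0.13 (SE 0.11; 95% interval −0.38 to 0.13). The interval corresponds to a fold between 0.766 and 1.09, and the genotypes overlapped. Slc6a18, a related carrier of glycine and other neutral amino acids, differed by 0.02, and the junction probe printed above differed by 0.10. Slc6a20a and Slc6a20b, a pair of closely related imino acid carriers whose probes may share target RNA, differed by −0.15 and 0.04.

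The heavy chain Slc3a1 and its light chain Slc7a9, which together exchange cystine and dibasic amino acids and are mutated in cystinuria, were likewise within the spread of the arrays. Slc3a1 was at 5.32, 5.28 and 5.11 in WT and at 5.25, 5.12 and 5.27 in Selenbp1-KO (difference −0.02, 95% interval −0.30 to 0.25). Slc7a9 was at 4.02, 3.97 and 3.83 in WT and at 3.73, 3.80 and 3.95 in Selenbp1-KO (−0.12, −0.39 to 0.16), and its junction probe gave −0.13. Slc7a13, a second light chain of Slc3a1 found in the late proximal tubule, differed by 0.36 (−0.34 to 1.05). Its levels were 3.94 and 3.81 on WT 2 and WT 3, the arrays of the first slide row, and 4.36 to 4.80 on WT 4 and the Selenbp1-KO arrays, and the Selenbp1-KO mean was 0.25 below WT 4 alone (−0.25 with slide row as a block). Kap, an androgen-regulated proximal tubule gene, was also lower on those 2 arrays, at 8.38 and 8.35 against 8.67 to 8.83 elsewhere. The part of the slide row or of the tissue in this pattern was not tested.

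Slc1a1, the carrier of glutamate and aspartate, differed by −0.01 (−0.26 to 0.25). Slc6a6, the taurine carrier, was at 4.62, 4.49 and 4.61 in WT and at 4.30, 4.27 and 4.51 in Selenbp1-KO, a difference of −0.22 (SE 0.11, p 0.106, adjusted p 0.326). The lowest WT array was just under the highest Selenbp1-KO array, and the junction probe of the gene gave −0.18. Slc6a6 was called in 4 of 19 alternative analyses and was lower in Selenbp1-KO in all of them, and Slc6a8, the creatine carrier, differed by −0.13 and was called in 2 of 19. After quantile normalization both were among the called genes, at −0.25 and −0.18. Slc36a1, a proton-coupled carrier of small amino acids, differed by −0.19.

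**Figure D2:**
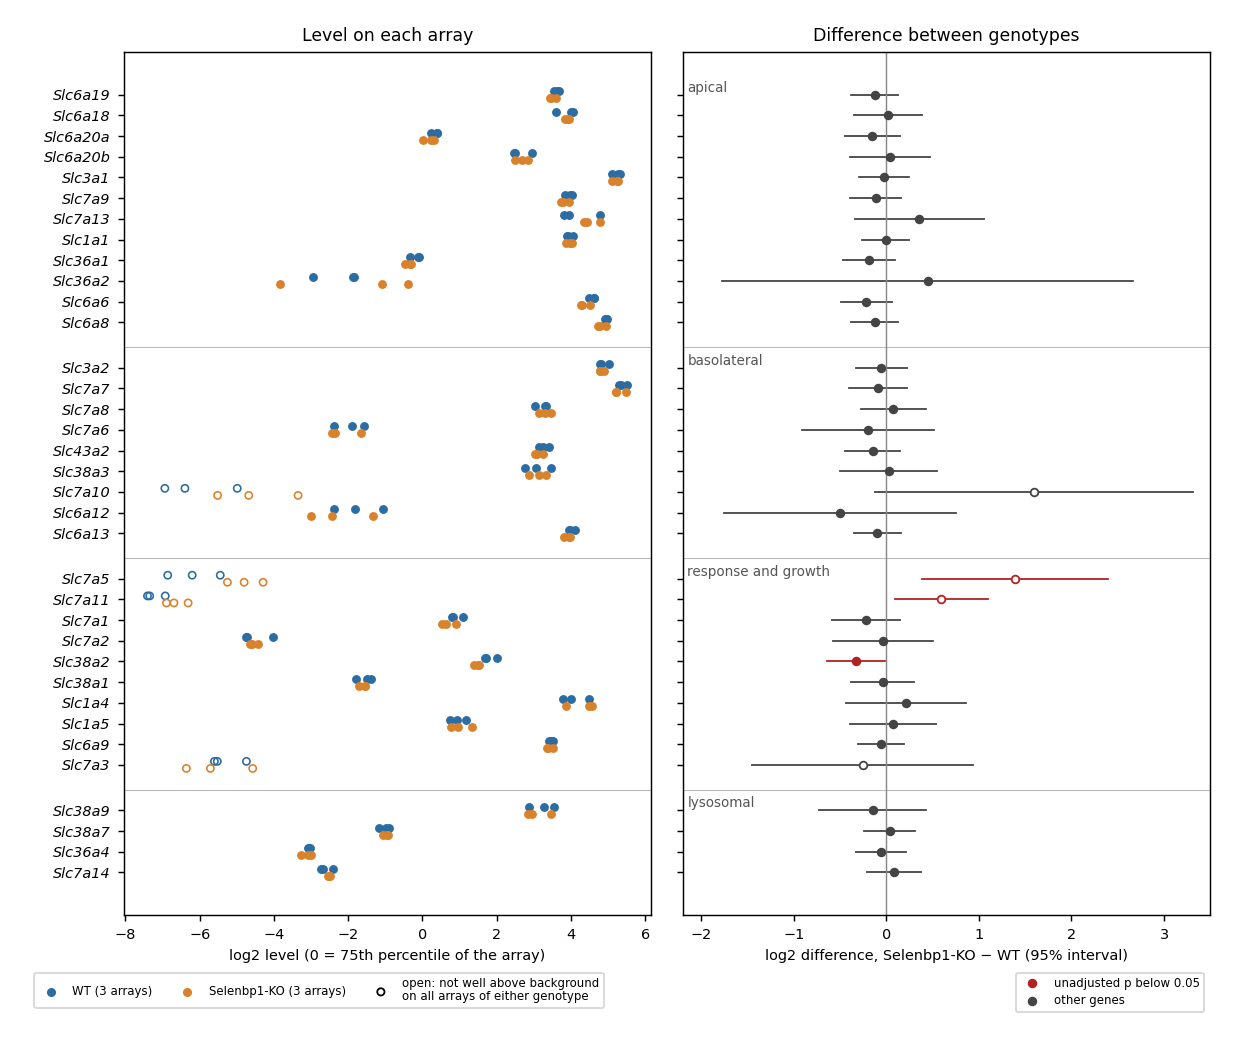
The left panel gives the log2 level on each of the 3 WT (blue) and 3 Selenbp1-KO (orange) arrays for 35 transporters grouped by role, and the right panel the log2 difference with its 95% interval. Each gene is shown by its brightest probe, which for Slc38a9 shares part of its sequence with a probe of another gene. All apical, basolateral and lysosomal carriers overlap between genotypes, most of them around a difference of 0. Slc38a2, Slc7a5 and Slc7a11 (red) are the called genes, the last 2 with open symbols for signals not well above background.

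On the basolateral side, none of the 9 genes was called. Slc3a2, the heavy chain, was at 4.82, 5.03 and 4.78 in WT and at 4.80, 4.78 and 4.89 in Selenbp1-KO (−0.05, 95% interval −0.33 to 0.22). Dimmer probes of Slc3a2 differed by −0.05 and 0.27, and neither was called. The probe at 0.27 shares part of its sequence, on the opposite strand, with the brightest probe of Slc38a9. It may therefore read RNA of other genes, which was not tested. The light chains of Slc3a2 gave differences of −0.09 for Slc7a7, the exporter of dibasic amino acids, and 0.07 for Slc7a8, an exchanger of neutral amino acids. The difference of a further light chain, Slc7a6, was −0.20. Slc43a2, a facilitator for large neutral amino acids, differed by −0.15, Slc38a3, the sodium-coupled glutamine carrier, by 0.02, and Slc6a13, a GABA carrier, by −0.10. These 7 genes overlapped between genotypes.

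The other 2 basolateral genes varied widely from mouse to mouse within each genotype. Slc6a12, the betaine carrier that serves osmolyte uptake, was at −1.07, −2.38 and −1.81 in WT and at −3.01, −1.33 and −2.42 in Selenbp1-KO (difference −0.50, 95% interval −1.75 to 0.75). Akr1b3, aldose reductase, which makes the osmolyte sorbitol, placed the 6 arrays in the same order, from 5.93 on WT 2 and 5.78 on KO 2 down to 3.86 on KO 3 and 3.80 on KO 1. Akr1b3 and 4 other genes of the inner medulla or of osmolyte handling (Slc5a3, Aqp3, Slc14a2 and Fxyd4) were looked up after the values of Slc6a12 were seen. None of the other 4 kept the order. Slc5a3, the inositol carrier, was highest on WT 4 and lowest on KO 2, Aqp3 was highest on KO 3 (4.61) and lowest on KO 2 (4.23), Fxyd4 was highest on WT 4 and KO 1 (5.42 and 5.41), and Slc14a2 was highest on KO 2 and lowest on WT 3 (2.43 and 2.03).

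Slc7a10, a carrier of small neutral amino acids that is also known from fat cells, was at −6.40, −4.99 and −6.94 in WT and at −4.68, −3.35 and −5.52 in Selenbp1-KO. It was well above background on 1 WT and 2 Selenbp1-KO arrays, and its difference of 1.59 (SE 0.70) was not called (p 0.064, adjusted p 0.279). Slc36a2, a proton-coupled carrier of glycine and proline and the apical gene with the widest spread, was at −1.88, −1.84 and −2.96 in WT and at −1.10, −0.39 and −3.84 in Selenbp1-KO (0.45, 95% interval −1.78 to 2.67). The extremes of Slc36a2 were both Selenbp1-KO arrays. Markers of fat varied beside these genes. Adipoq, the fat cell hormone adiponectin, was at 0.55, 1.05 and −0.62 in WT and at 1.66, 2.70 and 0.19 in Selenbp1-KO, with its highest levels on KO 2 and KO 1 and its lowest on WT 4, the same 3 arrays as for Slc7a10. Cidec was lowest on WT 4 too, whereas Plin1 was lowest on KO 3 (−2.65) and Lep was lowest on WT 2 (−2.30) and highest on KO 1 (−1.89).

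All 4 fat markers (Adipoq, Plin1, Lep and Cidec) were well above background on all arrays and above 0 in difference, and none was called. Their summed level, relative to the 75th percentile, was 3.15 to 10.5 in WT and 4.63 to 26.0 in Selenbp1-KO. Cidec, the brightest of these probes on every array, weighs most in this sum. Ucp1, Cidea and Cox8b, genes of brown fat, were added after the values of Slc36a2 were seen. Ucp1, the uncoupling protein of brown fat, was at 0.39, 0.02 and −1.32 in WT and at 1.29, 2.06 and −3.42 in Selenbp1-KO, and Cidea and Cox8b likewise were highest on KO 2 and KO 1 and lowest on KO 3. Slc36a2 was highest and lowest on those arrays too. Without KO 3, Slc36a2 was called at 1.48, and without KO 2 its difference was −0.25. Slc7a10, well above background on 1 WT array, was also called without KO 3. The part of fat tissue in these values was not tested, and in a tissue sample fewer cells of a type and less RNA per cell cannot be told apart.

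**Figure D3:**
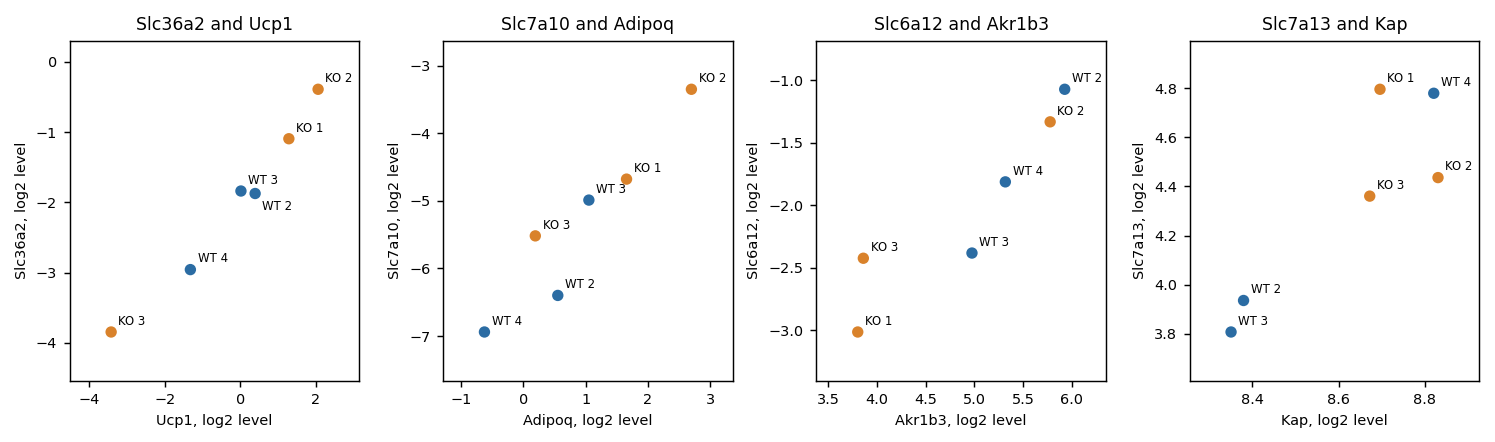
Each panel sets the log2 level of a transporter (y axis) against that of another gene (x axis) on the 3 WT (blue) and 3 Selenbp1-KO (orange) arrays. Slc36a2 runs with Ucp1, with KO 2 at the top and KO 3 at the bottom, Slc7a10 with Adipoq, and Slc6a12 with Akr1b3. WT 2 and WT 3 stand apart from the other arrays in Slc7a13 and Kap. Ucp1 and Akr1b3 were looked up after the transporter values were seen. The other genes looked up with Akr1b3 did not keep its order. The fat markers Plin1 and Lep were lowest on other arrays than Adipoq.

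Among the 10 transporters linked to growth or to amino acid scarcity, 3 were called, against 7.98% of all probes on the array, and 2 of the 3, Slc7a5 and Slc7a11, had signals at or near background. Slc38a2, which takes up small neutral amino acids with sodium and is known to be induced by amino acid shortage, was at 2.00, 1.69 and 1.71 in WT and at 1.50, 1.54 and 1.39 in Selenbp1-KO (probe at chr15:96518491-96518550, mm9). Every Selenbp1-KO array was below every WT array. The difference was −0.33 (SE 0.13, 95% interval −0.64 to −0.02, p 0.042, adjusted p 0.279), that is, WT was 1.25-fold higher. Among all probes well above background, 6.81% were lower in Selenbp1-KO with no overlap. The difference was below 0 in all 19 alternatives and called in 12 of them. The call was lost, among other settings, without WT 2 (−0.23), without any 1 of the Selenbp1-KO arrays (−0.36 to −0.29), with slide row as a block, where WT 4 was the only WT array (−0.23, p 0.232), and in the mean with a second, dim probe of the gene (−0.06).

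Slc7a5, the carrier of large neutral amino acids that pairs with Slc3a2, was higher in Selenbp1-KO at signals near background. Its levels were −6.20, −5.45 and −6.86 in WT and −4.80, −4.29 and −5.25 in Selenbp1-KO, with no overlap (p 0.015, adjusted p 0.279). No WT array and 1 Selenbp1-KO array was well above background, so the fold is given as a bound, which was 1.33. The Selenbp1-KO mean in this bound includes arrays that were not well above background, so it is no firm minimum. The fitted 95% interval began at a fold of 1.30. Slc7a5 was called in 17 of 18 alternatives. Slc7a11, the cystine and glutamate exchanger, was well above background on no array. Its fitted difference of 0.59 (p 0.028, adjusted p 0.279) gives no fold and was called in 8 of 18 alternatives. Other probes of Slc7a11, equally dim, gave 0.28, 0.37 and 0.37, and none of these was called. The median difference of all member probes well above background on no array was 0.37. Slc7a15, outside these groups, was not well above background on any array either, with a fitted difference of −0.91 (p 0.003, adjusted p 0.279) that was called in 16 of 18 alternatives. It turned to 0.090 after normexp background correction, and a second probe gave 0.21.

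The other 7 genes of this group were not called. Slc7a1 and Slc7a2, carriers of arginine and lysine, differed by −0.22 and −0.04, and Slc7a3, of the same kind but dim, by −0.26. Slc1a4, a carrier of alanine, serine and cysteine, differed by 0.21 with a 95% interval of −0.43 to 0.86, its WT arrays alone ranging from 3.78 to 4.50. Slc1a5 and Slc38a1, which take up glutamine, differed by 0.07 and −0.04, and Slc6a9, a glycine carrier, by −0.05.

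None of the 4 lysosomal members was called. Slc38a9, the arginine sensor that acts on mTOR, differed by −0.14 at its brightest probe, which stands for a cDNA clone. That probe shares part of its sequence, on the opposite strand, with a dimmer probe of Slc3a2. It may therefore read RNA of other genes, which was not tested. At the probe of the RefSeq transcript of Slc38a9 the difference was −0.09 (95% interval −0.35 to 0.17). Slc38a7, which exports glutamine from lysosomes, differed by 0.04, Slc36a4 by −0.06 and Slc7a14 by 0.08. Among the brightest probes of the lysosomal members the widest 95% interval, −0.72 to 0.43, was that of Slc38a9.

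Of the called probes, 4 were not the brightest of their gene, and in each case the brightest probe was not called. The junction probe of Slc43a1, a facilitator for large neutral amino acids, was at −4.32, −4.27 and −4.43 in WT and at −4.70, −5.01 and −5.00 in Selenbp1-KO, lower with no overlap (−0.56, SE 0.13, p 0.004, adjusted p 0.279). It was well above background on 3 WT arrays and 1 Selenbp1-KO array, was called in 16 of 18 alternatives, and gave 0.02 after normexp background correction. The brightest probe of Slc43a1, at chr2:84703578-84703637, differed by −0.01 (95% interval −0.49 to 0.46).

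For the imino acid carrier Slc6a20a the second probe was at −0.11, −0.21 and −0.15 in WT and at 0.16, 0.14 and 0.04 in Selenbp1-KO. It was higher with no overlap (0.27, p 0.031, adjusted p 0.279), whereas the brightest probe gave −0.15. A second probe of Slc38a10 differed by 0.30 (p 0.044) against 0.06 for the brightest, and another probe gave 0.18. A second probe of Slc36a1, well above background on 1 WT and 2 Selenbp1-KO arrays, differed by 0.52 (p 0.030) against −0.19. Each of these 3 probes was called in 10 or fewer of its alternatives, and whether probes of 1 gene differed from each other was not tested. Across all member probes 10 of 118 (8.47%) did not overlap between genotypes, against 13.3% of all probes.

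**Figure D4:**
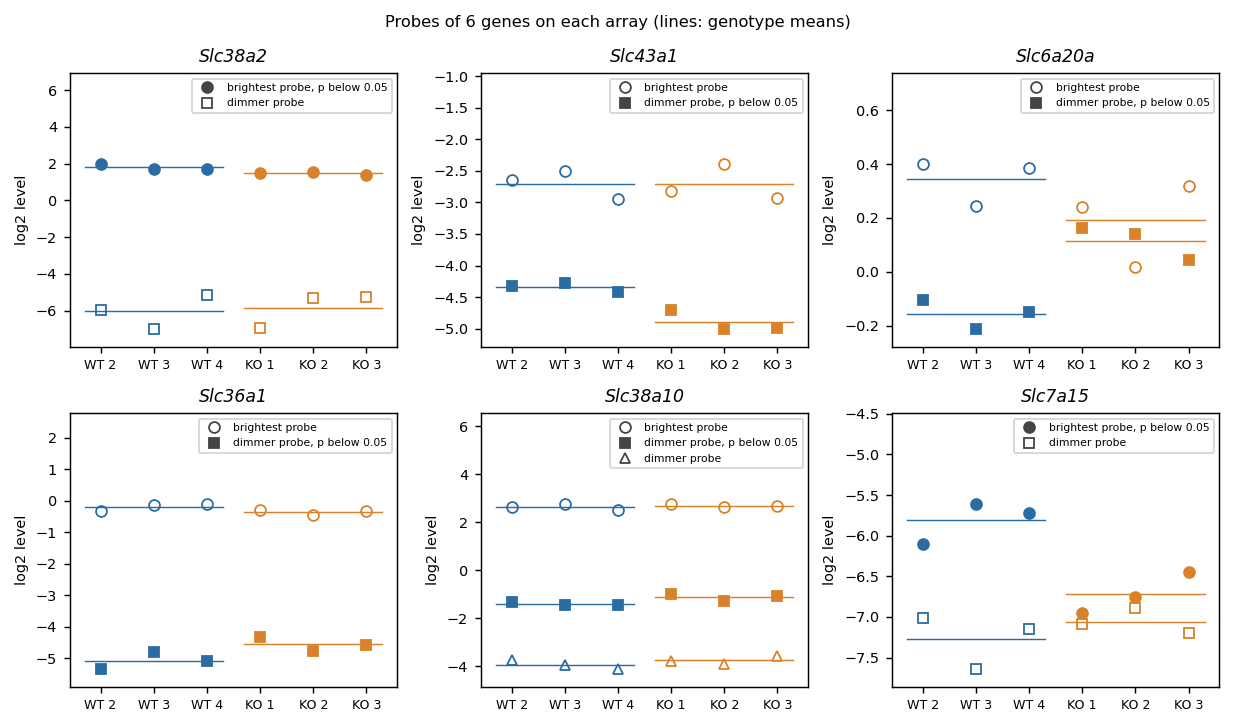
Log2 levels on each of the 6 arrays for every probe of 6 genes with a called probe, with the genotype means as lines and called probes filled. In Slc43a1, Slc6a20a, Slc36a1 and Slc38a10 the called probe is not the brightest one, whose genotype means differ by 0.19 or less.

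Of the remaining 31 genes, 16 were well above background and none of these was called, with differences from −0.29 to 0.51. The largest, 0.51 for the glutamate carrier Slc1a3, had a 95% interval of −0.40 to 1.42, and the gene was highest on KO 2. Slc7a12, a kidney amino acid carrier related to Slc7a13, was at −1.43, −1.07 and 0.35 in WT and at −0.91, −0.35 and −1.22 in Selenbp1-KO (−0.11), so that WT 4 stood above the other 5 arrays. Slc6a4, the serotonin carrier, differed by −0.23, and a second, dimmer probe by −0.48 (p 0.050, not called). The other 15 genes were not well above background on all arrays of either genotype, and Slc7a15 alone among them was called.

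Genes that work with these transporters or control them were described from lists of 21 partners and other amino acid carriers, 14 genes of the amino acid response driven by the transcription factor Atf4, and 8 regulators. Of the 41 found on the array 1 was called, the peptide carrier Slc15a1, which was well above background on no array. Tmem27, also named Cltrn, which brings Slc6a19 to the brush border, was at 7.35 to 7.71 in WT and differed by 0.04. Slc25a13, a mitochondrial aspartate and glutamate carrier, differed by −0.07, and the lysosomal cystine carrier Ctns by −0.15.

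The Atf4 response, of which Slc38a2, Slc7a5 and Slc7a11 are known targets, held 7 genes above and 7 below 0, with a median of −0.01 and none called. Atf4 itself differed by 0.01 and Asns, asparagine synthetase, by 0.01. Chac1, a glutathione-degrading enzyme, differed by 0.32 (95% interval −0.25 to 0.90) and Trib3 by −0.05. Of the regulators, 7 of 8 were below 0, with a median of −0.10 and none called. Hnf4a, a transcription factor of the proximal tubule, differed by −0.04 and Mtor by −0.09.

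Some markers of red cells and leukocytes were called. All 3 red cell genes were called higher in Selenbp1-KO. Their summed levels were 254 to 341 in WT and 360 to 535 in Selenbp1-KO, and these sums mostly follow Hba-a1, the brightest probe. Of 6 leukocyte genes 2 (Cd68 and Cd3e) were called higher, with summed levels of 2.72 to 3.47 and 3.29 to 3.52 that overlapped. Ptprc, the pan-leukocyte gene, differed by −0.16. Of the adrenal genes, 3 of 4 of the cortex and 3 of 4 of the medulla were well above background on no array. The part of red cells or leukocytes in the transporter values was not tested.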

How the data were processed

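Kidney total RNA was labeled with Cy3 and measured on 6 single-color Agilent arrays of 62976 spots. The authors deposited 1 scanner file per array, with background-corrected intensity per spot and detection p-values. They also deposited a table of quantile-normalized intensities, whose log2 values served as an alternative. The file headers name Feature Extraction 10.7.1.1 and mm9, the submitters' processing notes 9.5.1.1. The labels give TRIzol and a column purification for RNA extraction, which the paper describes differently.

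Here, outlier spots were dropped (none hit a transporter), log2 intensity was centered on the 75th percentile of the non-control spots of each array, and the spots of 1 probe were averaged. The test took 56097 of 56605 probes, those detected on at least 1 array (p-value under 0.05). Genotypes were compared with limma 3.58.1 in R 4.3.3 (moderated, two-sided, Benjamini-Hochberg adjustment over all tested probes), and with 3 arrays per genotype an exact permutation test could not go below p 0.1. Each gene was represented by its brightest probe. Where all arrays of a genotype were not well above background, a fold is a bound, the mean of the brighter genotype over that of the dim one. Each dim array entered with the higher of its lowest signal well above background and the dim probe's own. The bound is no firm minimum where arrays of the brighter genotype are dim too. Of the member probes 90 had an accession in the RefSeq table (GRCm38.p6), with no differing symbol.

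Named genes were those called while well above background, 35 kidney transporters fixed by role, and dim members with p under 0.05; other genes and probes were named after their values were seen. The members and lists were chosen with earlier results of these data known. Nothing states that the mice were independent beyond their labels, so p-values measure the spread between these samples. In data simulated on these arrays, 88.2% of probes with a log2 change of 1 had p under 0.05 and 8.85% passed adjustment. The number of arrays limits precision. Alternatives changed the background correction, scaling, filters, test, blocks, probes per gene and arrays.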

Additional observations from a re-analysis of the deposited data

How the results depend on the processing

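Of the 118 member probes and 66 genes, 8 and 4 were called, out of 4479 called over the array. Scaling to the median gave 23, 10 and 14616; only probes well above background gave 5, 1 and 2841; limma with a trend and robust variance called 7 genes and 7536 probes of the array. Leaving out 1 array at a time gave 4 to 29 member probes, 2 to 13 genes and 2024 to 17585 probes of the array, with a gene median of −0.04 to 0.01; the highest counts came without WT 4 (13 genes, 8 of them adjusted p under 0.05, beside 12522 of 56097 probes of the array) and the lowest gene counts without WT 2 or KO 2 (2 each). Without WT 4, Slc7a13 was called at 0.66. The cause was not tested.

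Only numbers 2 and 3 were shared between genotypes and the labels do not say what they mark. Deviations of same-numbered arrays correlated at 0.17 and 0.19, and KO 3 and KO 1 correlated alike with WT 3 (0.19 each). A fit with replicate number as a block compares WT 2 and WT 3 with KO 2 and KO 3 alone. The arrays with unshared numbers do not enter its differences. Its results therefore do not separate pairing from the loss of those arrays. With the replicate block, 28 member probes, 12 genes and 18430 probes of the array were called. The calls of Slc38a2 (−0.39) and Slc7a5 (1.05) were lost. These differences changed sign: Slc1a4 −0.073, Slc6a18 −0.13, Slc38a3 −0.15, Slc36a2 −0.26, Slc7a7 0.023, Slc38a1 0.024, Slc7a3 0.031, Slc38a9 0.13 and Slc7a2 0.25.

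Other settings also changed the sign of some differences, among them those of Slc7a15 and the dimmer Slc43a1 probe, which had been called. With slide row as a block, where WT 4 is the only WT array and is assumed to vary like the others, these were Slc7a8 −0.015, Slc7a13 −0.25, Slc6a20b −0.27, Slc1a1 0.026, Slc3a2 0.039 and Slc3a1 0.10. With normexp they were Slc6a20b −0.0011, Slc38a3 −0.0074, Slc6a18 −0.019, the dimmer Slc43a1 probe 0.022, Slc7a15 0.090, Slc36a4 0.11, Slc7a2 0.15 and Slc7a3 0.19. Slc6a18 was −0.015 after quantile normalization and −0.016 in the authors' values. Averaging each gene's probes gave Slc7a8 −0.061, Slc3a2 0.056, Slc6a20a 0.060, Slc36a1 0.17 and Slc38a1 0.26. The Slc3a2 average includes the dimmer probe at 0.27 that shares sequence with a probe of Slc38a9. Leaving out 1 array gave ranges across 0 for Slc1a1 (−0.041 to 0.041), Slc1a5 (−0.085 to 0.19), Slc36a2 (−0.25 to 1.48), Slc36a4 (−0.12 to 0.020), Slc38a1 (−0.15 to 0.047), Slc38a3 (−0.14 to 0.21), Slc38a7 (−0.036 to 0.091), Slc38a9 (−0.33 to 0.0096), Slc3a1 (−0.088 to 0.023), Slc3a2 (−0.099 to 0.023), Slc6a18 (−0.13 to 0.11), Slc6a20b (−0.047 to 0.20), Slc7a2 (−0.17 to 0.20), Slc7a3 (−0.74 to 0.15) and Slc7a8 (−0.025 to 0.16).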
